A study of Mus musculus with 10 samples.

Results

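The comparison set 2 sarcomatoid tumors grown in the lung (tumors 323 and 307) against 3 mammary adenocarcinomas (tumors 131, 17 and 85). These are the 5 arrays, of 10 in the series, whose images were read with the same extraction protocol, named GE2_1105_Oct12, so that the protocol was the same in both groups. All tumors trace to genetically engineered mice whose Cre recombinase was driven by the MMTV promoter, which is active mainly in mammary epithelium, and mice with both mutant alleles had a C57BL/6 background. The adenocarcinomas carried an activating missense allele of Pik3ca (the catalytic subunit of PI3 kinase) together with a missense allele of Trp53 (the p53 tumor suppressor). The lung tumors are labelled as transplanted sarcomatoid adenocarcinoma, and by the study's methods grew after tail vein injection of cell lines made from primary sarcomatoid tumors. One line came from a tumor with both alleles and the other from a tumor with the Pik3ca allele and a spontaneous Trp53 mutation, and the labels do not say which number belongs to which. Each lung tumor therefore stands for 1 line. The study calls its tail vein model syngeneic C57BL/6 where it describes lines that were edited later and their parent, and does not state the host for each of these arrays or the ages of the animals. Tumor type, growth in the lung and passage through culture go together in these 5 arrays and cannot be told apart.

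Sarcomatoid carcinoma is an epithelial cancer whose cells have a spindle shape and resemble those of a sarcoma. Cells that undergo an epithelial to mesenchymal transition (EMT) lose the keratins, claudins, desmosomes and E-cadherin that hold an epithelium together, and gain matrix and cytoskeletal proteins of connective tissue cells. Transcription factors of the ZEB, SNAI and TWIST families can drive this change, and ZEB and SNAI proteins bind E-box motifs in the promoters of epithelial genes.

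Each array measured red against green fluorescence, and the values are the deposited log2 ratios of tumor over a common reference RNA. The label names Cy3, the green dye, as that of the tumor, but green varied less between arrays than red (mean SD over probes 0.489 against 0.829 on the log2 scale). Red was therefore read as the tumor. This direction is likely and runs with the one the study gives, and if the label were right every sign below would turn. A probe was called when limma's moderated test gave an adjusted p (Benjamini-Hochberg, over all probes) under 0.05. A difference below is the mean log2 ratio of the lung tumors minus that of the adenocarcinomas, so a difference of 1 stands for a doubling. In tumor pieces, fewer cells of a type and less RNA per cell cannot be told apart.

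Of 40196 probes tested, 85 were higher in the lung sarcomatoid tumors (0.211%) and 208 lower (0.517%), 293 in all (0.729%). The called differences were large. Those of the higher probes ran from 2.48 to 8.04 (median 3.39) and those of the lower probes from -2.50 to -7.06 (median -4.21). The median difference over all probes was -0.01. The groups did not overlap for 11752 probes (29.2%), among them all 293 called probes, and 4771 probes had an unadjusted p under 0.05. An exact permutation test of 2 arrays against 3 cannot go below p = 0.1, so every call rests on the spread that limma shares across probes. The calls also rested on single arrays, since 0 probes passed without lung 307 (3380 had an unadjusted p under 0.05) and 0 without adenocarcinoma 85 (4080). Between 44 and 87 passed with 1 of the other arrays left out. Adenocarcinoma 85 was the array with the fewest probes well above background in red (53.5%, against 67.3% to 68.7% on the other 4).

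**Figure D1:**
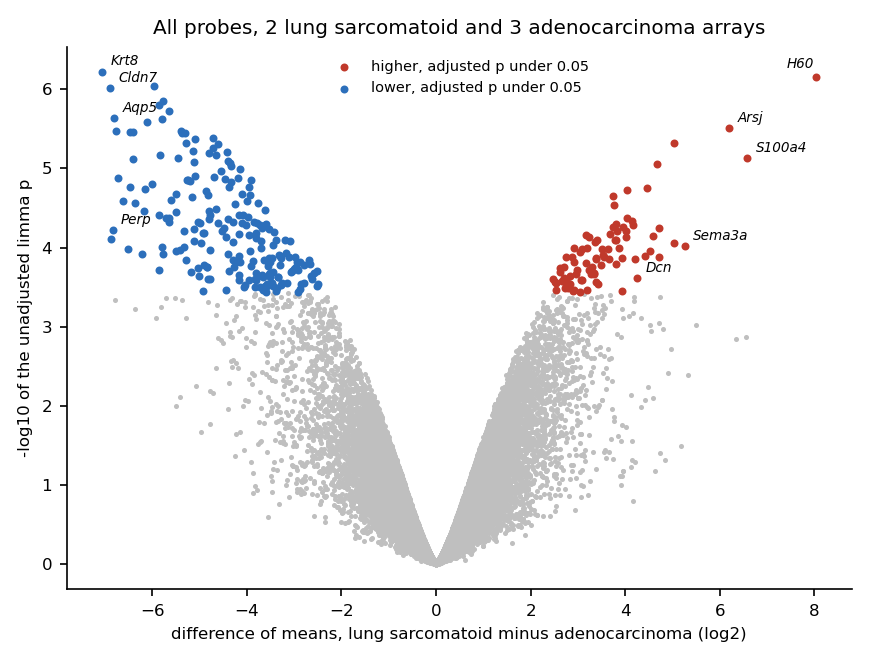
Each point is 1 of 40196 probes, with the difference of means (log2) on the horizontal axis and -log10 of the unadjusted limma p on the vertical axis, and the 85 probes called higher are red and the 208 called lower blue. The called probes lie beyond 2.48 on the higher side and beyond -2.50 on the lower side, with a probe for H60 farthest to the right at 8.04.

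The genes with the largest falls were those of the epithelial cell surface and its keratin skeleton. Krt8 and Krt18, which pair to form the keratin filaments of simple epithelia, stood at -4.99 and -5.22 (Krt8) and at -4.03 and -5.02 (Krt18) in lung 323 and lung 307. In adenocarcinomas 131, 17 and 85, Krt8 stood at 1.67, 2.33 and 1.85 and Krt18 at 2.04, 1.89 and 2.78. Both lung tumors were far below all 3 adenocarcinomas for each keratin, though the rule for named genes requires groups without overlap. Krt8 fell by 7.06 (SE 0.39, limma adjusted p = 0.00848), with a second, brighter probe at -5.86, and Krt18 fell by 6.76 (SE 0.48, adjusted p = 0.00848).

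Cldn7, a claudin that seals tight junctions, read -2.90 and -3.66 in the lung tumors against 3.43, 3.55 and 3.85 in the adenocarcinomas. The adenocarcinomas lay close together, and Cldn7 fell by 6.89 (SE 0.41, adjusted p = 0.00848). Epcam, the epithelial cell adhesion molecule, read -2.46 and -4.91 against 2.44, 3.12 and 4.03, with the lower of the lung values in tumor 307. It fell by 6.88 (SE 0.81, adjusted p = 0.0245). Perp, a desmosomal protein encoded by a p53 target gene, had values of -3.58 and -6.32 against 1.78, 1.89 and 1.99. The lung pair differed from each other more than the adenocarcinomas did, and the fall of 6.84 (SE 0.77) had an adjusted p of 0.0222. Ptprf, a receptor tyrosine phosphatase found at cell junctions, stood at -4.46 and -4.06 against 1.53, 2.51 and 2.60 and fell by 6.47 (SE 0.47, adjusted p = 0.00848).

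Regulators of epithelial fate fell as far. Grhl2, a grainyhead transcription factor that maintains epithelial junctions, read -0.98 and -2.67 against 4.66, 4.59 and 5.46 and fell by 6.73 (SE 0.60, adjusted p = 0.0123) on its named probe, which was well above background on 1 lung array. Its other probes gave -2.79 and -0.21, so the size differed between probes. Tfap2c, the AP-2 gamma factor of luminal mammary cells, was not well above background on either lung array, so its difference of -6.63 (adjusted p = 0.0159) rests on signals near background there. It read 0.60 and -1.57 against 5.98, 6.07 and 6.37. Aqp5, the water channel of secretory and alveolar epithelium, read -1.04 and -1.78 against 4.92, 5.37 and 5.89 and fell by 6.80 (SE 0.46, adjusted p = 0.00848). Aqp5 is also expressed by the alveoli of normal lung, yet it was lower in the tumors taken from lung. Krt23, an acidic keratin, stood at 0.91 and -1.97 against 6.11, 5.91 and 5.92 and fell by 6.51 (SE 0.80, adjusted p = 0.0281), with 1 lung array well above background.

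S100a4, a calcium-binding protein associated with motile mesenchymal cells and metastasis, was the named gene with the largest rise. It read 2.11 and 0.72 in lung 323 and lung 307 against -4.94, -4.91 and -5.64 in the adenocarcinomas. All 5 arrays measured it well above background, and it rose by 6.58 (SE 0.53, adjusted p = 0.00987), a call kept under 10 of 13 alternative settings or left-out arrays. Arsj, a member of the arylsulfatase family, read 2.79 and 2.48 against -4.17, -3.29 and -3.24. It rose by 6.20 (SE 0.44, adjusted p = 0.00848), also kept in 10 of 13, and was well above background on 1 of the 3 adenocarcinoma arrays. The study chose S100a4, Arsj, Epcam and Krt18 on samples that include these 5, so their direction here is not independent evidence.

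The other named higher genes encode secreted, matrix and developmental regulators. Sema3a, a secreted axon guidance cue, read -0.17 and -0.89 against -4.85, -6.86 and -5.68 and rose by 5.27 (SE 0.64, adjusted p = 0.0272). It was well above background on 1 of the 3 adenocarcinoma arrays, and its difference was 2.77 with loess. Dcn (decorin), a small proteoglycan of fibroblast matrix, read 1.77 and 0.47 against -2.28, -3.45 and -3.66 and rose by 4.25 (SE 0.60, adjusted p = 0.0404), with a second probe at 2.36 (adjusted p = 0.0689). Colec12, a scavenger receptor with a collagen-like domain, read 0.03 and 0.35 against -4.15, -3.33 and -4.46. It rose by 4.17 (SE 0.46, adjusted p = 0.0211). For each of these 3 genes both lung tumors lay above every adenocarcinoma, which the rule for named genes requires. Among nuclear regulators, Smarca1 (a chromatin remodeling ATPase) rose by 4.72 (adjusted p = 0.0311), Eya4 (a transcriptional coactivator and phosphatase) by 4.71 (adjusted p = 0.0221) and Zfpm2 (a cofactor of GATA factors) by 4.22 (adjusted p = 0.0314). Other probes of Eya4, Zfpm2 and Sema3a gave smaller differences, and 1 or more of each did not pass. They were at 4.02 and 2.07 for Eya4 (adjusted p = 0.0240 and 0.0727), 2.65 and 0.65 for Zfpm2 (adjusted p = 0.0872 and 0.740), and 5.03 and 1.24 for Sema3a (adjusted p = 0.0258 and 0.396). Bhlhe22, a basic helix-loop-helix factor best known from neurons, read 6.30 and 6.18 against 0.86, 2.60 and 2.0. It was not well above background on any adenocarcinoma array, and its red signal was 9.27-fold higher in the lung tumors (adjusted p = 0.0311). Its log2 difference was 4.42, and 2.71 with loess. Cpa6, a secreted carboxypeptidase, was likewise dim in all 3 adenocarcinomas, with a red signal 3.37-fold higher in the lung tumors (adjusted p = 0.0285). Its log2 difference was 4.52, and 1.61 with loess.

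**Figure D2:**
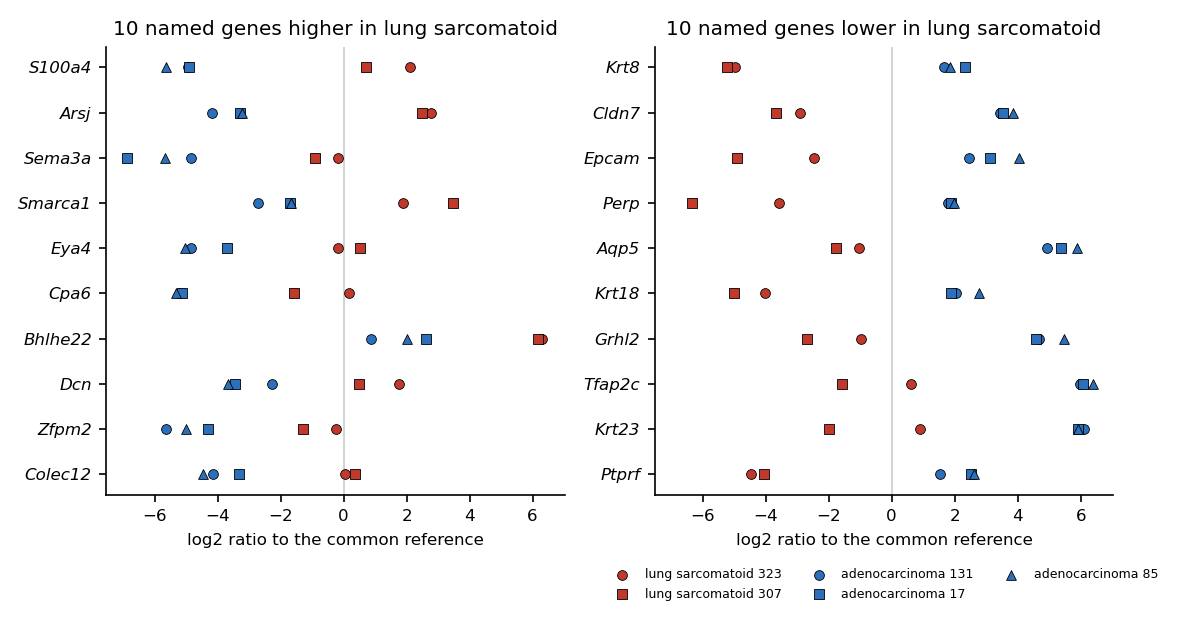
Each point is the log2 ratio to the common reference of 1 array, red for the 2 lung sarcomatoid tumors and blue for the 3 adenocarcinomas, for the 10 higher (left) and 10 lower (right) named genes. In every row the red and blue points do not overlap, and the genes were chosen by a rule that requires this.

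The fall extended through the epithelial lists. Of 25 measured epithelial junction and keratin genes, 14 were called lower and 0 higher, 24 differences were negative, and the median difference was -4.04 beside -0.01 over all probes. Setting the 5 members that were dim in the lung tumors to their bound gave a median of -3.56. Dsp (desmoplakin, which ties keratin to desmosomes) fell by 6.40 (SE 0.52, adjusted p = 0.00987), Cldn3 (a tight junction claudin) by 4.69 (adjusted p = 0.0123) and Pkp3 (a desmosomal plakophilin) by 4.29 (adjusted p = 0.0211). Krt19 and Krt7, further keratins of simple epithelia, fell by 4.24 (adjusted p = 0.0323) and 4.04 (adjusted p = 0.0439). Some genes were not well above background on any lung array. Among them, the red signals of the tight junction proteins Marveld3 and Ocln were 18.5-fold and 5.30-fold lower (adjusted p = 0.0130 and 0.0233). That of the polarity gene Crb3 was 11.8-fold lower (adjusted p = 0.0164).

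Cdh1, which encodes E-cadherin, did not pass. It read 2.20 and 1.17 against 6.18, 5.35 and 4.30. The groups did not overlap, the difference was -3.59 (SE 0.63) and the adjusted p was 0.0742. Both lung arrays still measured Cdh1 well above background. Cdh3 (P-cadherin) was the 1 member with a positive difference, 0.66 (SE 0.90, adjusted p = 0.849), and its groups overlapped.

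Of 24 measured epithelial regulators, 12 were called lower and 0 higher, with a median difference of -3.69 (-3.44 with 3 dim members at their bound). The splicing factors that set epithelial isoforms were among them. Esrp1 was dim on both lung arrays, with a red signal 9.36-fold lower (adjusted p = 0.0101), and Esrp2 fell by 5.86 (SE 0.80, adjusted p = 0.0360). The membrane protease matriptase (St14) fell by 4.72 (SE 0.35, adjusted p = 0.00886) and so did its inhibitors, with differences of -3.58 for Spint1 (adjusted p = 0.0433) and -5.79 for Spint2 (adjusted p = 0.0279). St14 read -2.66 and -2.44 against 2.15, 2.23 and 2.15, with little spread in either group. Erbb3, a receptor that signals to PI3 kinase, fell by 4.26 (SE 0.42, adjusted p = 0.0167). Elf5, the alveolar cell fate factor of the mammary gland, differed by -5.36 (SE 0.84) with an adjusted p of 0.0559. Gata3, a luminal factor, differed by 0.18 (SE 0.39, adjusted p = 0.918), with overlapping groups.

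Luminal and secretory genes of the mammary gland followed. In the list of 16 milk and secretory genes, 3 were called lower, 15 differences were negative and the median was -1.88 (-1.13 without adenocarcinoma 131). The red signal of the casein Csn1s1 was 56.1-fold lower in the lung tumors (adjusted p = 0.0134), where it was not well above background. That of the mucin Muc15 was 32.1-fold lower (adjusted p = 0.0211). Lcn2 (lipocalin, made by epithelium and neutrophils) read -1.60 and -1.40 against 3.34, 4.32 and 4.23 and fell by 5.46 (SE 0.44, adjusted p = 0.00987). Csn2 (beta-casein) was dim in the lung tumors and read 7.80, 2.40 and 7.33 in the adenocarcinomas. Its spread among the adenocarcinomas was wide and its adjusted p was 0.222. Basal and myoepithelial genes (17 measured) had a median of -2.02 (-1.24 with loess) with 16 negative differences and 0 called. Krt5, a basal keratin, differed by -2.02 (adjusted p = 0.251) and Lamb3, a laminin chain of the basement membrane, by -3.27 (adjusted p = 0.0544).

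Genes of the mesenchymal side moved less evenly. All 11 measured EMT transcription factors had positive differences (median 2.0), 6 with an unadjusted p under 0.05 and 7 without overlap between groups, and 0 passed the adjusted threshold. The median was 0.89 with loess, 1.10 with Agilent's ratios and 1.24 with all 5 adenocarcinomas. Of all 40196 probes, 2550 had a positive difference with an unadjusted p under 0.05 and 5677 one without overlap. Zeb2 read 1.0 and 1.12 in the lung tumors against -2.36, -0.70 and -2.20, a difference of 2.82 (SE 0.57, adjusted p = 0.103). Zeb1 read 1.04 and 0.10 against -2.35, -0.90 and -2.55, a difference of 2.50 (SE 0.61, adjusted p = 0.166). For both ZEB genes the lung tumors lay above every adenocarcinoma, with tumor 17 nearest to them. Snai2 differed by 3.45 (SE 0.96, adjusted p = 0.218) with lung values of -1.97 and 1.35, and the homeobox gene Prrx1 by 2.28 (SE 0.40, adjusted p = 0.0721). The smallest difference was that of Sox9, 0.10 (SE 0.83).

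Of 30 measured mesenchymal and fibroblast matrix genes, Dcn was called higher and 0 were called lower, and 26 differences were positive (median 1.55). This median was set by 1 tumor, since it was -0.58 without lung 307 and 3.03 without lung 323. It was 0.42 with all 5 adenocarcinomas. Col1a1, a chain of type I collagen, read -4.57 in lung 323 and 1.97 in lung 307, on either side of the adenocarcinomas at -3.43, -3.66 and -2.17. Vim (vimentin, the intermediate filament of mesenchymal cells) read -0.63 and 0.20 against -4.19, -1.78 and -2.21, a difference of 2.51 (SE 0.76, adjusted p = 0.256). Cdh2 (N-cadherin) differed by 2.87 (adjusted p = 0.202) and Fn1 (fibronectin) by 2.47 (adjusted p = 0.294). For Vim, Cdh2 and Fn1, unlike Col1a1, both lung tumors lay above all adenocarcinomas. Tagln, an actin-binding protein of smooth muscle and myofibroblasts, went the other way with a difference of -1.55 (adjusted p = 0.234).

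Among 19 matrix proteases and crosslinkers, 0 were called and 17 differences were positive (median 1.27, but 0.68 without lung 307 and 0.47 with all 5 adenocarcinomas). Plau (urokinase, which activates plasminogen) read 3.39 and 2.29 against -2.35, -0.19 and -1.19, a difference of 4.08 (SE 0.70, adjusted p = 0.0668). Mmp9, a gelatinase, read 0.76 and 4.73 against -3.04, -1.31 and -2.14, with the lung tumors far apart and an adjusted p of 0.146. Loxl2 (a collagen crosslinking oxidase) differed by 1.87 (adjusted p = 0.348). In the S100 family (14 measured), S100a4 was the 1 called gene and the median was 0.59. Its neighbor S100a6 differed by 2.74 (adjusted p = 0.147), S100a14, an epithelial member, by -3.91 (adjusted p = 0.0945), and S100a9 by 0.00 (SE 0.36).

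**Figure D3:**
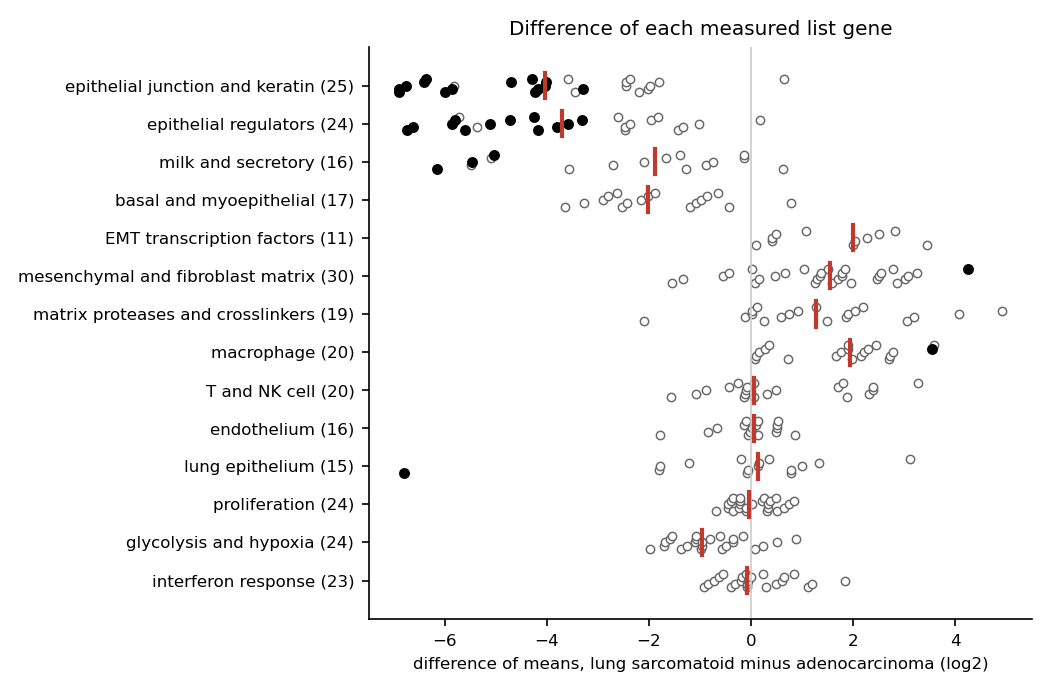
Each point is the difference of means (log2, lung sarcomatoid minus adenocarcinoma) of 1 gene, filled where the adjusted p is under 0.05, and the red line is the median of the list, whose number of measured genes is in parentheses. The medians of the epithelial junction (-4.04) and regulator (-3.69) lists lie lowest, and those of the EMT factors (2.0) and macrophage genes (1.94) highest.

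Genes of other cell types that the pieces could hold were measured beside these. All 20 macrophage genes had positive differences (median 1.94), 14 with an unadjusted p under 0.05 and 16 without overlap, and 1 was called. Of all 40196 probes, 2550 had a positive difference with an unadjusted p under 0.05 and 5677 one without overlap. Ccl7, a monocyte chemokine also made by fibroblasts and tumor cells, read 1.98 and 1.96 against -1.62, -0.97 and -2.14 and rose by 3.55 (SE 0.45, adjusted p = 0.0311). Csf1r (the receptor of the macrophage growth factor) differed by 2.79 (adjusted p = 0.0977), Cd68 (a lysosomal macrophage protein) by 2.45 (adjusted p = 0.0977), Itgam by 1.91 (adjusted p = 0.152) and Mrc1 by 1.98 (adjusted p = 0.192). The mean log2 ratio over the list was 3.51 and 3.41 in lung 323 and lung 307 against 1.37, 2.44 and 1.28 in the adenocarcinomas, higher in both lung tumors than in any adenocarcinoma. Ptprc (CD45, on all white cells) differed by 1.88 (adjusted p = 0.302). The part of macrophages in the S100a4 rise, a gene that they also express, was not tested.

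Of 20 T and NK cell genes 0 were called (median 0.06), 11 differences were positive and 9 negative (lowest -1.57). The groups did not overlap for 7 on the higher side and 2 on the lower, against 5677 and 6075 of all 40196 probes. Only 8 of the genes were well above background on all 5 arrays. A positive difference with an unadjusted p under 0.05 was held by 6, and by 2550 of all 40196 probes. The largest positive differences belonged to genes of cytotoxic cells. Gzma (granzyme A) differed by 3.27 (adjusted p = 0.119), Ncr1 (the NK receptor NKp46) by 2.40 (adjusted p = 0.101) and Prf1 (perforin) by 2.39 (adjusted p = 0.181), against 0.05 for the T cell receptor subunit Cd3e (SE 0.37). Each of these 3 was well above background on 1 of the 3 adenocarcinoma arrays. The lists of neutrophil (15 measured, median 0.62), B cell (8, median 0.01), MHC (15, median 0.39) and interferon response genes (23, median -0.07) held 1 called gene between them, Lcn2. Their medians moved with single arrays, from -1.32 (without lung 307) to 1.15 (without lung 323) for interferon genes, from -0.02 (without lung 307) to 0.88 (without lung 323) for MHC genes and from 0.08 (without lung 307) to 0.96 (without adenocarcinoma 131) for neutrophil genes.

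Markers of normal lung were measured because the lung tumors were cut from that organ. Of 15 lung epithelial genes, Aqp5 was called lower and 0 were called higher (median 0.13), and 5 were well above background on all 5 arrays. The surfactant gene Sftpc read -0.01 and 2.48 against -0.63, -0.76 and 2.09 and was well above background on 1 lung array, Scgb1a1 (of airway club cells) differed by 0.79 (adjusted p = 0.568), and Nkx2-1, the lung lineage factor, was not well above background on any array. Hopx, which alveolar type I cells express, differed by 3.12 (SE 0.53, adjusted p = 0.0654). The 8 alveolar macrophage genes had a median of 0.19. In that list the red signal of Krt79, a keratin, was 21.6-fold lower (adjusted p = 0.0231), and the scavenger receptor Marco differed by 0.18 (SE 0.54). For the 16 endothelial genes the median was 0.06 with 0 called, and Pecam1 differed by 0.50 (SE 0.44).

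Of 16 adipocyte genes, a tissue that surrounds mammary tumors, 0 were called (median 0.22), and Adipoq differed by 0.10 (SE 0.92). Skeletal muscle genes (16 measured, 0 called) had a median of 1.63 with 14 positive differences. That median was -0.67 when adenocarcinomas 105 and 470, read with another protocol, were added. The proliferation list (24 measured) had a median of -0.04 with 0 called, and Mki67, a marker of cycling cells, differed by -0.22 (SE 0.43). Glycolysis and hypoxia genes (24 measured, 0 called) had a median of -0.96 (-0.64 without adenocarcinoma 85) with 20 negative differences, of which that of Ndrg1, a hypoxia-induced gene, was -1.98 (adjusted p = 0.242). Of 25 Trp53 targets and cell cycle inhibitors, Perp was called lower and 0 were called higher (median 0.21), and Trp53 itself differed by 0.03 (SE 0.35). Among 12 hormone and ErbB receptors Erbb3 was the 1 call (median -0.38), while Esr1 (the estrogen receptor) differed by 2.08 (adjusted p = 0.274).

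The other 5 tumors of the series were read with other protocols, mammary sarcomatoid tumor 323 with one of its own. Tumor and protocol therefore go together when their values are set beside those of the lung tumors. In mammary sarcomatoid tumors 323, 307 and 594, Krt18 read -0.58, -1.24 and -2.02, between the lung values and those of adenocarcinomas 131, 17 and 85. Adenocarcinoma 470 was at -4.22, as low as the lung tumors, and adenocarcinoma 105 at 1.21. Epcam read 1.48, 1.39 and 0.07 in the mammary sarcomatoid tumors, 3.29 in adenocarcinoma 105 and -3.03 in adenocarcinoma 470. S100a4 read 0.78, -2.67 and 0.34 in the mammary sarcomatoid tumors and -2.98 and -2.01 in adenocarcinomas 105 and 470. Mammary tumor 307 was thus within the range of the adenocarcinomas of its protocol, and lung tumor 307 above that of its own. The part of protocol in this was not tested. Arsj read 1.57, 0.72 and 1.70 in the mammary sarcomatoid tumors and -2.12 and 0.86 in adenocarcinomas 105 and 470. In adenocarcinoma 470, Dcn read 3.23, Bhlhe22 6.53 and Colec12 0.72, each above both lung tumors. The other named higher genes read below both lung tumors there. With all 5 adenocarcinomas the difference was 2.31 for Dcn, 3.34 for Bhlhe22 and 2.94 for Colec12, and none of these was called.

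A second contrast within 1 protocol was available from mammary sarcomatoid tumors 307 and 594 against adenocarcinomas 105 and 470. It called 0 probes with limma, with 857 at an unadjusted p under 0.05. Of the 85 probes called higher in the lung contrast 57 had a positive difference in it, where 58.6% of all probes did, with a median of 0.38. Of the 208 called lower 132 had a negative difference, with a median of -0.27. The difference in the mammary contrast was 1.33 for S100a4 and 1.84 for Arsj. Among the other named higher genes it was negative for Dcn (-1.84), Eya4 (-0.22), Sema3a (-0.15) and Bhlhe22 (-0.05), and positive for the rest. It lay between -1.27 and 0.80 for the 10 named lower genes. The median of the epithelial junction list was -0.12 and that of the macrophage list 0.62, against -4.04 and 1.94 in the lung contrast. The EMT factors had a median of -0.08 there, with 4 of 11 differences positive, against 2.0. The 2 adenocarcinomas lay on either side of the mammary sarcomatoid tumors in the junction and EMT lists, so these medians average over them. The mean log2 ratio of the junction list was 3.13 in adenocarcinoma 105 and -0.93 in 470, against 1.23 and 0.72 in mammary 307 and 594. For the EMT factors it was -1.15 and 0.25, against -0.47 and -0.32. The test of the difference between the contrasts called 0 probes (2589 at an unadjusted p under 0.05, smallest adjusted p 0.227), so no gene is shown to differ between them. That count was 115 without adenocarcinoma 105, 6 without mammary 594 and 1 without lung 323. Tumor 307 gave an array to each contrast.

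A pair of immune genes, chosen after their values were seen, set the lung tumors apart from all others. H60 encodes a stress ligand of the NK cell receptor NKG2D and is known to vary between inbred mouse strains. One of its probes had the largest difference of all probes, at 2.33 and 1.35 in lung 323 and 307 against -5.83, -6.41 and -6.36 in adenocarcinomas 131, 17 and 85 (8.04, SE 0.45, adjusted p = 0.00848). That probe was well above background on both lung arrays and on 1 of these 3 adenocarcinoma arrays. On the other arrays it read -4.96, -5.0 and -1.33 in mammary sarcomatoid tumors 323, 307 and 594 and -4.99 and -4.95 in adenocarcinomas 105 and 470. Both lung tumors thus read above the mammary tumors that bear their numbers, which were read with other protocols. The second H60 probe rose by 4.15 (SE 0.45, adjusted p = 0.0211). A probe for H2-Q1, a class I gene of the major histocompatibility complex, read -1.07 and -0.40 in lung 323 and 307 and between 1.45 and 5.14 in the other 8. It was not well above background on either lung array, had an adjusted p of 0.0221, and its other probes differed by 0.44 and 0.60. Whether the strain of the injected cells or hosts had a part in these values was not tested.

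**Figure D4:**
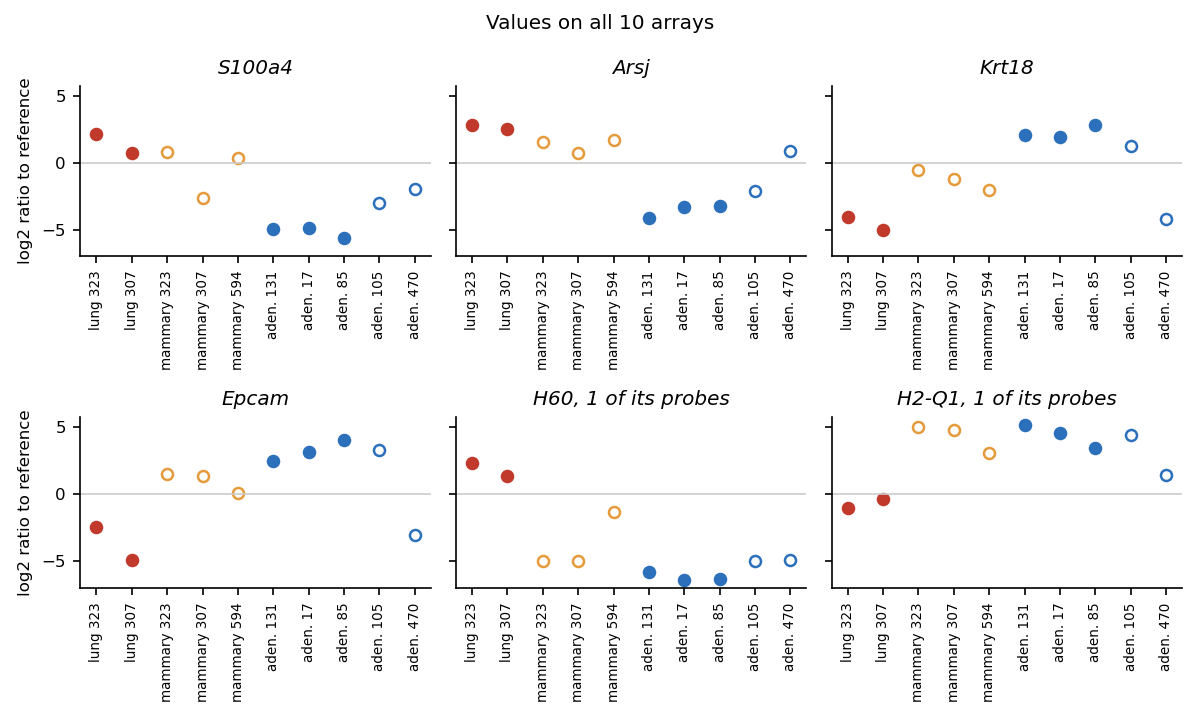
Each panel gives the log2 ratio to the common reference of 1 gene on all 10 arrays, filled for the 5 arrays compared here and open for the 5 read with other protocols, in red for lung sarcomatoid, orange for mammary sarcomatoid and blue for adenocarcinoma. Adenocarcinoma 470 reads low for Krt18 (-4.22) and Epcam (-3.03), and both lung tumors stand apart from all other arrays for the H60 and H2-Q1 probes shown.

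Promoters of the genes that fell are shown because ZEB and SNAI factors are known to bind the E-box CACCTG, or CAGGTG on the other strand. The windows are from RefSeq (GRCm38.p6), and the 250 bases before the annotated start are printed 5′ to 3′ on the strand of the gene, with that hexamer in capitals. They are Krt8 (chr15:102004343-102004592, minus strand), Krt18 (chr15:102027966-102028215, plus), Cldn7 (chr11:69965171-69965420, plus, 1 of its windows), Epcam (chr17:87635729-87635978, plus) and, as a gene that rose, S100a4 (chr3:90603520-90603769, plus).
Krt8: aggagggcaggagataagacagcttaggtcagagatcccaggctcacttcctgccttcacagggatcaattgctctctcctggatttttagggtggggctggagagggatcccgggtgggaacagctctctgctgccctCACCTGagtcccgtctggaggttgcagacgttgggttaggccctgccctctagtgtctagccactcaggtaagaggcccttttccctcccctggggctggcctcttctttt
Krt18: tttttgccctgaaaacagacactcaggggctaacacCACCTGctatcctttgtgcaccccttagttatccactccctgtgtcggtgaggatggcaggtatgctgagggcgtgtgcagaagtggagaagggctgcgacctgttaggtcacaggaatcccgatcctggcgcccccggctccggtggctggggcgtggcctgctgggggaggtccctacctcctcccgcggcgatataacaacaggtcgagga
Cldn7: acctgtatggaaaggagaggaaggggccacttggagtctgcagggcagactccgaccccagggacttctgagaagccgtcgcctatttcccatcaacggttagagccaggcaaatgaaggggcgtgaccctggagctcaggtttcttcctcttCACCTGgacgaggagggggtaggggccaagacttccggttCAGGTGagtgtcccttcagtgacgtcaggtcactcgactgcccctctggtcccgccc
Epcam: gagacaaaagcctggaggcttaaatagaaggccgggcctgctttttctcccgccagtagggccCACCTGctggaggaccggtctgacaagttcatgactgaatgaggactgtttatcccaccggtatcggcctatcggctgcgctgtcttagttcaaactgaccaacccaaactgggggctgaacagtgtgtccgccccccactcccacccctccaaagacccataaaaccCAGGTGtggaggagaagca
S100a4: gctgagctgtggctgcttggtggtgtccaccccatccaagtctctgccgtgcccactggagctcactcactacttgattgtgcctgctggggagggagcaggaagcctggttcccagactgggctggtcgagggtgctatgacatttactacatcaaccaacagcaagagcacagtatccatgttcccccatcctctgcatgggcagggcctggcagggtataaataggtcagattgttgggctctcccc

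The Krt8 and Krt18 promoters each held 1 match, 111 and 214 bases before the start. Cldn7 held matches 97 and 57 bases before the start in this window and 0 in its other window, Epcam held them 187 and 19 bases before, and S100a4 held 0. The lower genes printed were picked because they hold it. Of the 10 named lower genes 7 had a window and 5 held a match, while Aqp5 and Ptprf held 0. Of the 10 named higher genes 5 had a window, and 1 of these, Arsj, held a match. The search covered 300 bases per window, 250 before to 50 after the start, on both strands, for every gene with a window in the table. It matched 3300 of 14972 tested genes (22%). Of the genes called lower, 161 in all, 112 had a window and 68 of these held the hexamer (60.7%). Of 59 genes called higher, 39 had a window and 6 held it (15.4%). In the epithelial junction list 13 of 16 genes with a window did (81.3%), in the regulator list 6 of 12, and in the mesenchymal list 1 of 16 (6.25%). A second E-box hexamer, CAGCTG, which is its own reverse complement, was held by 20.5% of the genes called lower, 20.5% of those called higher and 18.3% of all tested genes. The median GC content of the windows also differed between the sets, at 60.5% for genes called lower, 56.7% for genes called higher, 58% for all tested genes, 60.7% for the junction list and 57.2% for the mesenchymal list, and its part in the shares was not tested. A match is a run of letters in the reference genome and not a measured binding site.

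**Figure D5:**
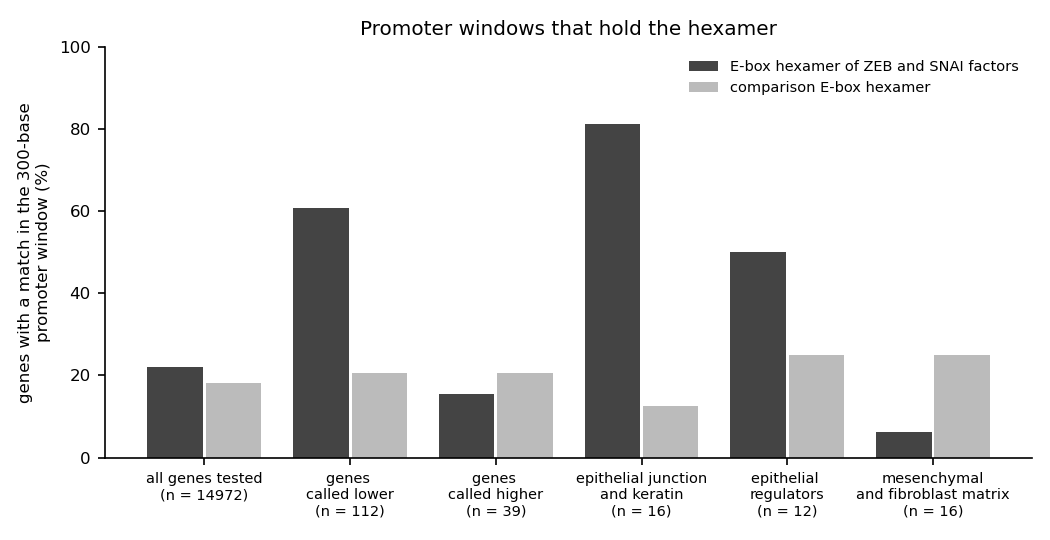
Bars give the percentage of genes whose 300-base promoter window holds the E-box hexamer of ZEB and SNAI factors (dark) or a comparison E-box hexamer (light), with the number of genes that have a window under each group. The dark bar is at 22% for all tested genes, 60.7% for genes called lower and 15.4% for genes called higher, while the light bar is near 20% for all 3.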

How the data were processed

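RNA from 10 tumors was hybridised to Agilent 2-color mouse arrays, and the 5 of one extraction protocol were compared. The authors deposited a table of log2 ratios, normalized with limma (version and steps not given in the sources used here), and scanner files that hold, per the file headers, intensity per channel, a log10 ratio and spot flags. Groups came from the labels. Of 42515 table rows, 134 were those of control probes. The rows matched 40196 probes, named by the scanner files' gene names and updated through RefSeq. Per the file headers, a flag marks spots well above background, read here in red. Differences were fitted on the deposited log2 values of the 5 arrays with limma 3.58.1 (R 4.3.3; lmFit, eBayes, two-sided, no dim-probe filter), group as the only term and Benjamini-Hochberg adjustment over all probes, and the fit was tested on simulated data. Each array is 1 tumor, so the number of arrays limits the precision. Named genes were the 10 largest called differences each way among probes named by 1 current symbol, without overlap and well above background on all arrays of the higher group. Added to these were the largest and smallest members and defining markers of each list, by the brightest probe, and genes the study named. Bounds (the "N-fold" values of red signal) compare the brighter group's mean normalized red signal with, per array, the higher of the lowest signal well above background and the dim probe's own, which was its own for every printed gene but Cpa6. They are not lower limits under every setting, since the loess difference of Bhlhe22 was 2.71 against a log2 bound of 3.21. The adjusted p beside a bound is that of the log2 ratio. No bound is given for Tfap2c, whose red signal differed by more than its log2 ratio. Alternatives were loess on normexp-corrected intensities, Agilent's log10 ratios, centring, quantile scaling, a filter, a variance trend, more arrays and each array left out. Members and lists were chosen with earlier results of these data known. Each of the 5 arrays was on a slide of its own, so slide could not be a block. One list gene is not reported here.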

Additional observations from a re-analysis of the deposited data

How the results depend on the processing

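The 293 calls became 127 with loess on the scanner intensities, 103 with Agilent's log10 ratios, 118 with all 10 arrays in the fit and 11 with all 5 adenocarcinomas, and rose to 515 with dim probes left out and 449 with a variance trend. They were 291 after centring and 314 after quantile scaling. At an adjusted p under 0.1 there were 693 and at an unadjusted p under 0.05 there were 4771. With 1 array left out the count was 0 to 87. A lone lung array was then assumed to vary like the others. Of the 20 named genes, 15 stayed called with loess, 4 with Agilent's ratios, 4 with all 10 arrays, 0 with all 5 adenocarcinomas, and 0 to 12 with 1 array left out. The 26 epithelial genes called lower became 20, 3, 1, 0 and 0 to 13 in the same settings. The mammary contrast called 4 probes with loess, 2 without dim probes and 0 to 6 with 1 array left out. The difference of contrasts called 0 to 115 with 1 array left out. No sign changed in 715 values from 54 results for single genes, with H60 counted by probe (456 kept their side of the threshold, 247 lost it and 12 gained it). Many of these signs could not change. The filter, the variance trend and the fit of all 10 arrays leave a difference as it is. Leaving out 1 array cannot turn a sign where the groups do not overlap, which the rule required for the 20 named genes. Most other probes of the genes in these results were not counted. Of those, a Grhl2 probe at -0.21 turned to 0.20 with all 5 adenocarcinomas, and a Zfpm2 probe at 0.65 to -0.45 with Agilent's ratios. Among 350 list medians, 303 stayed within the replicate spread, 44 moved beyond it and 3 that were themselves beyond it turned sign. In all, 33 values from 13 lists had the other sign, and every list median between -0.38 and 0.62 turned or moved by over 1.5 times with 1 array left out. With 1 array left out the mesenchymal median ran from -0.58 to 3.03 and the hormone and ErbB receptor median from -0.602 to 0.0204, each turned without lung 307, and the skeletal muscle median was -0.67 with all 5 adenocarcinomas. The causes were not tested. No paired analysis was possible because the labels number no replicates across these groups. Red signal over background limits adenocarcinoma 85 most.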
